A study of Mus musculus with 9 samples.

Results

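The genes described here are 10 transcription factors and adaptors of the GATA1-TAL1 complex and its close partners: Gata1, Gata2, Zfpm1, Tal1, Lyl1, Lmo2, Ldb1, Gfi1b, Nfe2 and Bcl11a. They were chosen by name for their known roles in erythroid and megakaryocytic cells, and all 10 were among the 35275 gene identifiers measured, of which 18658 had at least 1 count. Gene expression was measured by bulk RNA sequencing of megakaryocyte-erythrocyte progenitors (MEPs) from mouse bone marrow, gated as Lin-ckit+CD34-FcγRII/IIIlo cells. The MEPs were split by binding of HS3A8, a single-chain antibody fragment (scFv) against the glycan heparan sulfate, into an HS3A8-high and an HS3A8-low fraction. A mock-sorted group, exposed to the scFv MPB49, which does not bind heparan sulfate, served as control and stands for all MEPs. By the study's description the fractions are the upper and lower parts of HS3A8 binding, which together make up the MEPs. The control therefore holds cells of both kinds, and a control level between the fractions is what this design leads to. There were 3 libraries in each group, each from 25000 sorted cells. The study describes its mice as wild-type C57Bl/6 animals matched for age and sex, no allele or drug was added in any group, and strain and age are not given in the labels of these libraries. The fractions are cuts through 1 population by surface binding, so each can hold several kinds of cell.

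GATA1 and GATA2 are zinc finger proteins that bind the same short DNA motif. In erythroid and megakaryocytic cells GATA1 works with its cofactor FOG1, the product of Zfpm1, and in a complex in which TAL1, a basic helix-loop-helix protein, pairs with an E protein and is joined to GATA1 through LMO2 and LDB1. Early progenitors express GATA2, and GATA1 takes its place on many shared sites as the cells mature, a change known as the GATA switch. GFI1B and BCL11A are repressors, LYL1 is a close relative of TAL1, and NF-E2, whose large subunit is encoded by Nfe2, drives the late genes of platelet formation as well as globin genes.

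Promoters of 3 genes are shown because they carry, or lack, the DNA motif that the complex itself binds: Gfi1b and Tal1, with such a motif, and Gata2, whose level differed most between the fractions in either direction. Each is the stretch of 250 bases before the gene's annotated start in RefSeq, build GRCm38.p6, written 5′ to 3′ along the gene's strand. Capitals mark a GATA motif, searched on both strands as AGATAA or AGATAG and with T in place of the first A, TGATAA or TGATAG. The Gfi1b window is chr2:28621983-28622232 (minus strand), with the motif 120 bases before the start. The Tal1 window, chr4:115056176-115056425 (plus strand), is the first of 2 annotated starts and has the motif on the opposite strand, 205 bases before the start. The Gata2 window, chr6:88193641-88193890 (plus strand), also lies at the first of 2 starts, which counts per gene do not separate, and holds none of these letters.
Gfi1b: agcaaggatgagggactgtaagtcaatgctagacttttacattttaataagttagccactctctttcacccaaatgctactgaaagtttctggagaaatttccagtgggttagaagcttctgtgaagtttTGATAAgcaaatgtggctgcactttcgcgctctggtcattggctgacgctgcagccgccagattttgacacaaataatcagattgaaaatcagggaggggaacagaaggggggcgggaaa
Tal1: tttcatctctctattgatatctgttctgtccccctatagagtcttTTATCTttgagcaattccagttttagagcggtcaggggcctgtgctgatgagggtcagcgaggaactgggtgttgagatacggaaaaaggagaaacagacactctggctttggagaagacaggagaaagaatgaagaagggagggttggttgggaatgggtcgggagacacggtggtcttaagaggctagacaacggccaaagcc
Gata2: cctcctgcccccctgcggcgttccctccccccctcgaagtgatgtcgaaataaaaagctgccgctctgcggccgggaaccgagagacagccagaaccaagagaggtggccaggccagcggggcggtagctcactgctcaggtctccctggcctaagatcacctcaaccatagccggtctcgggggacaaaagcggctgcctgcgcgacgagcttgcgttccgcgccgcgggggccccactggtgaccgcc

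Promoter sequences were at hand for 8 of the 10 genes, in 12 windows. A GATA motif lay in 3 of the 12, at Gfi1b, Tal1 and Ldb1, against 26.5% of the 32851 promoter windows of the same length. The E-box bound by TAL1 and its partners, searched as CAGCTG or CAGATG, was in 0 of the 12 and in 25.5% of all windows. The NF-E2 motif TGAGTCA was in 0 of the 12 and in 4.46% of all windows. A match of letters is a description and is not evidence of binding.

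Library totals ran from 11781637 to 15850037 counts, and 13936 to 15659 genes were detected per library. At this depth a count of 0 allows up to 3 counts, or 0.189 to 0.255 counts per 1000000 (CPM), and the 10 factors had 89 to 8211 counts per library. CPM below are scaled by the TMM method over all 9 libraries. HS3A8-high and HS3A8-low libraries with the same replicate number deviated together from their group means, so results are also given with the replicate number as a block where that changed a call. Control replicate 1 stood apart, with a TMM factor of 0.865 against 0.988 to 1.08 in the other 8 libraries. The study describes the replicates as individual mice, the labels tie no library to a mouse, and p-values measure the spread between these libraries only.

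Markers of the sorted cell type and of other cells were summed per library, because members of the complex are shared with other lineages. The 7 erythroid markers, among them Klf1 at 539.2 to 1025 CPM, summed to 6529 to 7170 CPM in HS3A8-high, 4992 to 5658 CPM in HS3A8-low and 6296 to 6478 CPM in the control. Car1, an early erythroid carbonic anhydrase, was the only 1 of the 7 to pass the main test of the fractions, higher in HS3A8-high (5301 to 5717 CPM against 4034 to 4495 CPM, log2 fold change 0.36, edgeR adjusted p = 0.0257). It did not pass in any of the 6 analyses without 1 library (edgeR, adjusted p = 0.0505 to 0.115). Late erythroid genes were near the detection limit, with Alas2, the erythroid enzyme that starts heme synthesis, at 1.19 to 9.27 CPM. The 6 megakaryocyte markers summed to 31.0 to 54.4 CPM, 148.1 to 301.0 CPM and 107.1 to 210.8 CPM in the same order of groups, and the 7 stem and multipotent progenitor markers to 16.2 to 31.3, 136.5 to 172.6 and 67.8 to 121.7 CPM. The gate excludes CD34, yet Cd34 was counted at 28.1 to 73.8 CPM in HS3A8-low and at 0.828 to 11.0 CPM in HS3A8-high. The 8 granulocyte-monocyte markers reached 1711 CPM in HS3A8-high replicate 3 and 4398 CPM in HS3A8-low replicate 3, against 9.63 to 251.3 CPM in the other 7 libraries. The 6 mast cell and basophil markers were also highest in those libraries, at 80.7 and 165.7 CPM, against 1.63 and 2.48 CPM in the other HS3A8-high libraries, 20.9 and 27.2 CPM in the other HS3A8-low libraries and 10.1 to 23.2 CPM in the control. Prg2 and Epx, of eosinophils, summed to 153.7 CPM in HS3A8-low replicate 3 and to at most 4.57 CPM in any other. T and NK cell markers (7 genes) summed to 4.29 to 34.0, 149.4 to 171.3 and 44.8 to 111.3 CPM, with Nkg7, a granule protein of NK and cytotoxic T cells, making up most of the sum at 97.3 to 115.1 CPM in HS3A8-low, and Cd3e, of T cells, at most at 1.69 CPM. B cell markers (6 genes) summed to 1.35 to 4.77, 9.60 to 13.6 and 4.15 to 10.1 CPM, with Cd79a at most at 1.85 CPM. The share of these other cells in the results below was not tested, and in bulk samples fewer cells of a type and less RNA per cell cannot be told apart.

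The 10 factors spanned a wide range of levels in MEPs. On a scale per length of transcript (transcripts per 1000000, TPM, computed from the counts with the exon length of each gene in GENCODE M21), the order by the median over the 9 libraries was Gfi1b at 868.0 TPM, Gata1 at 621.9, Lmo2 at 586.9, Nfe2 at 209.4, Gata2 at 109.2, Ldb1 at 67.4, Tal1 at 63.2, Zfpm1 at 43.7, Bcl11a at 36.3 and Lyl1 at 19.0. Every gene's range over the libraries overlapped that of the next in this order. Within single libraries, Gfi1b, Lmo2, Nfe2, Gata2 and Bcl11a each stood above the next gene in 9 of 9, whereas Ldb1 did in 7, Tal1 in 6, and Gata1 and Zfpm1 in 5. Gfi1b stood above 99.2% and Lyl1 above 66.3% of the 18658 genes with at least 1 count, many of which were too low to test. With the longest transcript in place of all exons, Bcl11a moved to rank 7, Tal1 to 8 and Zfpm1 to 9, and the others kept their ranks. Within the complex, then, the adaptor Lmo2 was present at many times the level of Ldb1 and Tal1, and Lyl1 was the lowest.

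**Figure D1:**
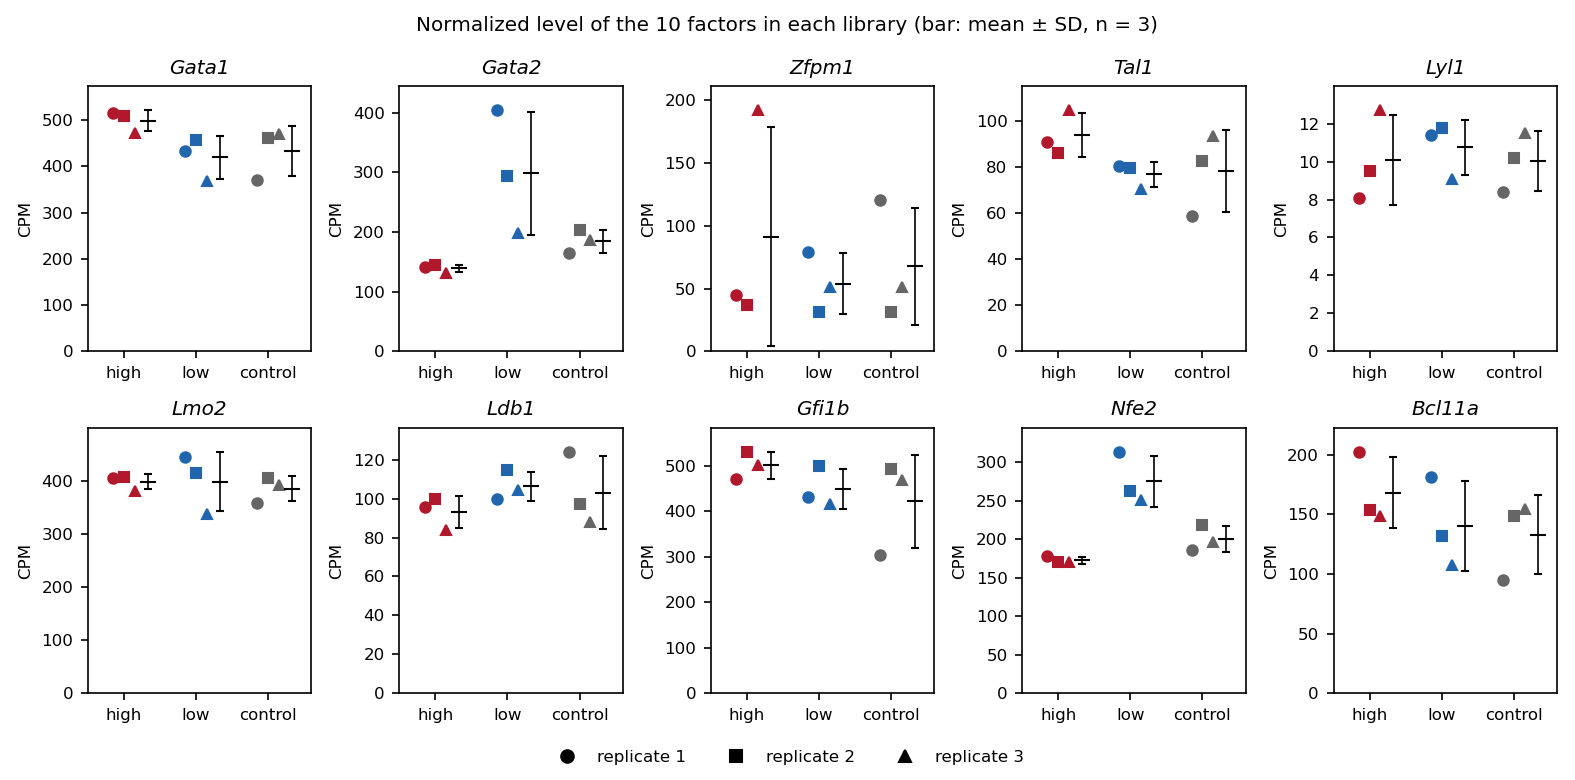
Each panel plots 1 gene, with normalized CPM on a vertical axis that starts at 0, and the HS3A8-high, HS3A8-low and control libraries from left to right as points shaped by replicate; the bar is the mean ± SD of 3 libraries. Nfe2 and Gata2 sit lower in all 3 HS3A8-high libraries than in any HS3A8-low library, while Zfpm1 has single high points at 192.0 CPM in HS3A8-high replicate 3 and 120.2 CPM in control replicate 1.

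The main comparison asked how the 2 fractions of MEPs differ. Nfe2 was lower in HS3A8-high MEPs and was the only 1 of the 10 factors to pass the main test, in which 3.82% of the 11791 genes tested passed in either direction and 3.21% were lower in HS3A8-high. With the replicate number as a block, Gata2 passed as well and was also lower, against 11.6% of all genes passing in either direction and 8.27% lower. The other 8 genes did not pass either test. Over the 10 genes the median log2 fold change of HS3A8-high over HS3A8-low was 0.05, against -0.03 over all genes tested, with 5 genes above 0 and 5 below.

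Nfe2, which encodes the large subunit of NF-E2 (chr15:103248212-103258403, minus strand, GRCm38), was counted at 178.3, 170.1 and 170.8 CPM in HS3A8-high replicates 1 to 3. In HS3A8-low it stood at 313.2, 263.0 and 250.7 CPM. The groups did not overlap, the control lay between them at 186.1, 218.7 and 196.2 CPM, and the HS3A8-high libraries were the closest together of any group (173.1 ± 4.58 CPM, SD, n = 3, against 275.6 ± 33.1 in HS3A8-low). The log2 fold change of HS3A8-high over HS3A8-low was -0.70 (SE 0.11, adjusted p = 0.0257 by edgeR's quasi-likelihood test with Benjamini-Hochberg adjustment). It was -0.81, -0.63 and -0.55 in the pairs of replicates 1, 2 and 3. Nfe2 passed in 11 of 16 alternative analyses and was lower in all 16. The adjusted p rose past the threshold in 5 of the 6 analyses that left out 1 library (edgeR, 0.0527 to 0.136), and without HS3A8-low replicate 3 it was 0.0244.

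Gata2, the GATA factor of early progenitors (chr6:88193891-88207032, plus strand, GRCm38), had the larger difference and the larger spread. Its levels were 141.1, 144.4 and 132.2 CPM in HS3A8-high and 404.5, 293.5 and 198.1 CPM in HS3A8-low. The lowest HS3A8-low library was above the highest HS3A8-high library, and replicates 1 and 3 of HS3A8-low lay further apart than HS3A8-low replicate 3 and any HS3A8-high library. The control lay between the fractions at 164.2, 202.9 and 186.5 CPM. The log2 fold change was -1.13 (SE 0.24, 95% interval -1.70 to -0.56), and the adjusted p of 0.0553 by edgeR's quasi-likelihood test missed the threshold. With the replicate block it was -1.07 and passed (edgeR, adjusted p = 0.0186). The pairs gave log2 differences of -1.52, -1.02 and -0.58. Without HS3A8-low replicate 3 the fold change was -1.35 and passed (edgeR, adjusted p = 0.0141), and in the other 5 analyses without 1 library it ran from -1.15 to -0.83 and did not pass. Summed markers of megakaryocytes, stem and progenitor cells, T and NK cells and B cells were likewise lower in every HS3A8-high library, as given above. Those of granulocytes and monocytes, of mast cells and basophils, and of eosinophils were lower in HS3A8-high within each replicate pair. The part of all these cells in the Gata2 and Nfe2 levels was not tested. Leaving out both libraries of replicate 3, those with the highest granulocyte-monocyte marker levels, gave -1.30 for Gata2 and -0.73 for Nfe2, and both passed (edgeR, adjusted p = 0.0127 and 0.0275), against 6.01% of all genes tested being lower in that analysis. In the libraries kept, granulocyte-monocyte markers were still lower in HS3A8-high, at 17.1 and 9.63 CPM against 114.4 and 251.3 CPM. That difference between the fractions was therefore not removed.

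Gata1, the erythroid and megakaryocytic GATA factor (chrX:7959260-7978071, minus strand, GRCm38), went the other way in level and did not pass. It was counted at 515.6, 508.1 and 472.9 CPM in HS3A8-high and at 433.1, 457.2 and 368.5 CPM in HS3A8-low. These groups did not overlap, but the difference was small, with a log2 fold change of 0.22 (SE 0.10, 95% interval -0.01 to 0.46, edgeR adjusted p = 0.276). It was above 0 in all 16 alternatives and passed in 1, the replicate block with trends in GC content and transcript length removed (edgeR, adjusted p = 0.0244). In that analysis 640 of the 11740 genes tested were called higher. Control levels, at 370.7, 460.6 and 469.0 CPM, overlapped those of HS3A8-low and lay below every HS3A8-high library.

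The ratio of Gata1 to Gata2 within a library does not depend on how libraries are scaled. Per length of transcript, Gata1 was counted 8.09, 7.79 and 7.92 times as high as Gata2 in HS3A8-high, 2.37, 3.45 and 4.12 times as high in HS3A8-low, and 5.0, 5.03 and 5.57 times as high in the control. No group overlapped another, and the control lay between the fractions, where a group that holds cells of both would lie. The mean log2 ratio of HS3A8-high was 2.99 ± 0.03 (SD, n = 3), that of HS3A8-low 1.69 ± 0.41 and that of the control 2.38 ± 0.09. HS3A8-high exceeded HS3A8-low by 1.30 on the log2 scale, a 2.46-fold difference (exact permutation test, two-sided, p = 0.1, the smallest that 3 libraries against 3 allow). Taken as 3 pairs by replicate number, the exact p was 0.25, the smallest that 3 pairs allow. HS3A8-high exceeded the control by 0.61, and HS3A8-low was lower than the control by a log2 difference of -0.68 (exact permutation test, two-sided, p = 0.1 for each, again the smallest possible). The control libraries enter both of these last differences.

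Of the TAL1 side of the complex, Tal1 was counted at 90.7, 86.3 and 104.8 CPM in HS3A8-high and at 80.5, 79.6 and 70.7 CPM in HS3A8-low. The groups did not overlap, and the log2 fold change of 0.26 (95% interval 0.00 to 0.52) did not pass the test (edgeR, adjusted p = 0.251). Lyl1, its paralog, was counted at 8.10, 9.48 and 12.7 CPM in HS3A8-high and at 11.4, 11.7 and 9.09 CPM in HS3A8-low, from only 108 to 195 counts in those 6 libraries. Its groups overlapped, and the log2 fold change was -0.12 (95% interval -0.69 to 0.46). Per length, Tal1 was 4.60, 3.74 and 3.39 times as high as Lyl1 in HS3A8-high, against 2.90, 2.78 and 3.20 times in HS3A8-low and 2.88, 3.33 and 3.33 times in control libraries. HS3A8-high was above HS3A8-low without overlap, by 0.39 on the log2 scale (exact permutation test, two-sided, p = 0.1, and 0.25 as 3 pairs, each the smallest possible), and above the control by 0.29 (exact permutation test, p = 0.1). HS3A8-low and control overlapped, with a log2 difference of -0.10 (exact permutation test, p = 0.3).

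**Figure D2:**
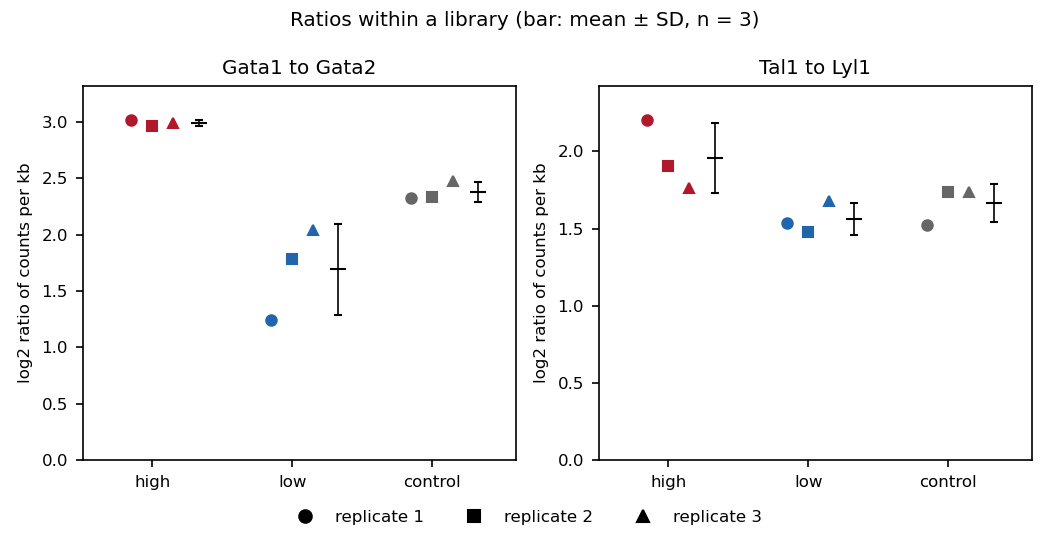
Points are libraries, shaped by replicate, with the log2 ratio of counts per kilobase of Gata1 to Gata2 (left) and of Tal1 to Lyl1 (right) on axes that start at 0; the bar is the mean ± SD of 3 libraries. The Gata1 to Gata2 ratio forms 3 separate groups, with means of 2.99, 1.69 and 2.38, whereas the Tal1 to Lyl1 ratio of HS3A8-low and control overlaps.

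Neither of the adaptors that hold the complex together passed the test. Lmo2, which links TAL1 to GATA1, stood at 405.5, 407.8 and 381.9 CPM in HS3A8-high and at 444.5, 415.3 and 337.3 CPM in HS3A8-low. The groups overlapped, and the log2 fold change was -0.03, with a 95% interval of -0.30 to 0.24. Ldb1, which lets complexes at distant sites meet, was counted at 95.9, 99.6 and 83.7 CPM in HS3A8-high and at 99.8, 114.5 and 104.2 CPM in HS3A8-low. These values did not overlap, by a margin smaller than the spread within either group, and the log2 fold change of -0.22 (95% interval -0.46 to 0.03) did not pass (edgeR, adjusted p = 0.320). Of Ldb1's exon length 3.84% overlaps Pprc1 and of Bcl11a's 2.40% overlaps 4930538E20Rik, so a small part of their counts could be shared.

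Of the repressors, Gfi1b was counted at 471.2, 529.9 and 501.9 CPM in HS3A8-high and at 431.1, 498.9 and 417.3 CPM in HS3A8-low. The groups overlapped and the log2 fold change was 0.13 (95% interval -0.08 to 0.35). Bcl11a, known for silencing fetal globin genes, was counted at 202.1, 153.3 and 148.7 CPM in HS3A8-high and at 181.2, 131.5 and 107.4 CPM in HS3A8-low, an overlap again. Its log2 fold change was 0.24 (95% interval -0.28 to 0.75), above 0 in all 3 replicate pairs (0.16, 0.22 and 0.47), and did not pass with or without the block (edgeR, adjusted p = 0.106 and 0.611).

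Counting all 10 genes, 3 were lower in every HS3A8-high library than in any HS3A8-low library (Gata2, Nfe2 and Ldb1), where 15.7% of all genes tested were, and 2 were higher in every HS3A8-high library (Gata1 and Tal1), where 12.1% of all genes were. The remaining 5 overlapped.

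**Figure D3:**
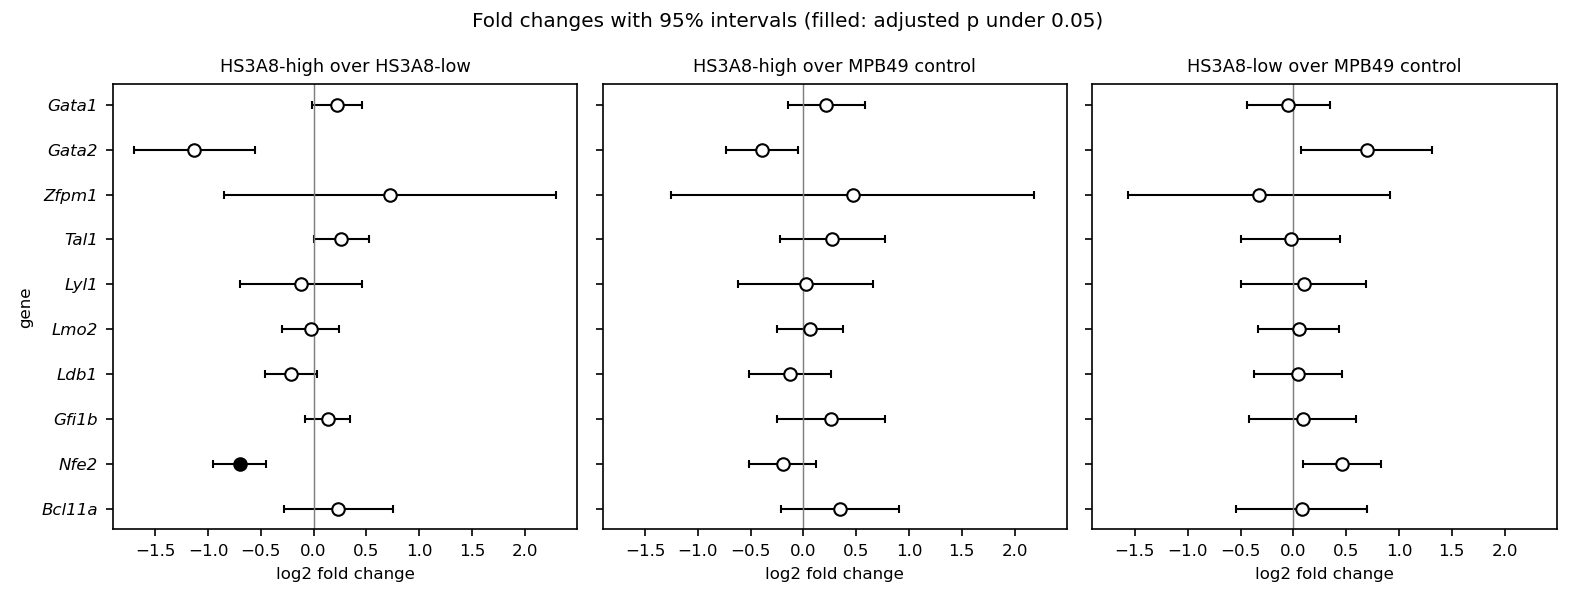
The log2 fold change of each gene is plotted with its 95% interval from edgeR, in 1 panel per comparison; a filled point passed the test at an adjusted p under 0.05. Only Nfe2 in HS3A8-high over HS3A8-low is filled, at -0.70, and Zfpm1 has the widest interval in that panel, from -0.84 to 2.30.

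Zfpm1, which encodes FOG1, the cofactor GATA1 needs in both lineages, was the least steady of the 10. It was counted at 44.8, 37.3 and 192.0 CPM in HS3A8-high, 79.1, 31.1 and 51.5 CPM in HS3A8-low and 120.2, 31.7 and 51.2 CPM in the control. The highest library of HS3A8-high was replicate 3 and that of the other groups replicate 1, and the groups overlapped throughout. The log2 fold change of HS3A8-high over HS3A8-low was 0.73 (edgeR, adjusted p = 0.607), and without HS3A8-high replicate 3 it was -0.41, so that library sets the direction. The 3 genes whose levels over the 9 libraries were most like those of Zfpm1 were Mta1, a subunit of the NuRD repressor complex, Cul3, of a ubiquitin ligase, and Tada2b, of a histone acetyltransferase complex, with root mean square differences of centred log2 CPM of 0.22, 0.22 and 0.23. All 3 were also highest in HS3A8-high replicate 3 and control replicate 1, Cul3 at 104.4 and 76.5 CPM against 22.9 to 41.0 CPM in the other 7 libraries. The transcript of Zfpm1 has a GC content of 66.8%, above that of 99.9% of the 11740 genes tested that have annotation, whereas those of Mta1, Cul3 and Tada2b have 57.4, 38.5 and 51.4%. With the replicate block the log2 fold change of Zfpm1 was 0.42, and with trends in GC content and transcript length removed as well it was 0.42. A part of base composition beyond such trends over all genes was not tested.

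The same measure was applied to Gata2, the other member whose log2 CPM varied with an SD of at least 0.5 over the libraries (0.53, and 0.90 for Zfpm1). The genes most like it among the 9348 with a mean of at least 5 CPM were Tgfbr2, a TGF-beta receptor, Kif21b, a kinesin motor protein, and Slc9a3r1, a scaffold protein of the cell cortex, with root mean square differences of 0.14, 0.15 and 0.15. Tgfbr2 stood at 43.4, 32.5 and 21.7 CPM in HS3A8-low replicates 1 to 3 and at 17.8 to 20.3 CPM in HS3A8-high. Like Gata2, each was highest in HS3A8-low replicate 1.

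**Figure D4:**
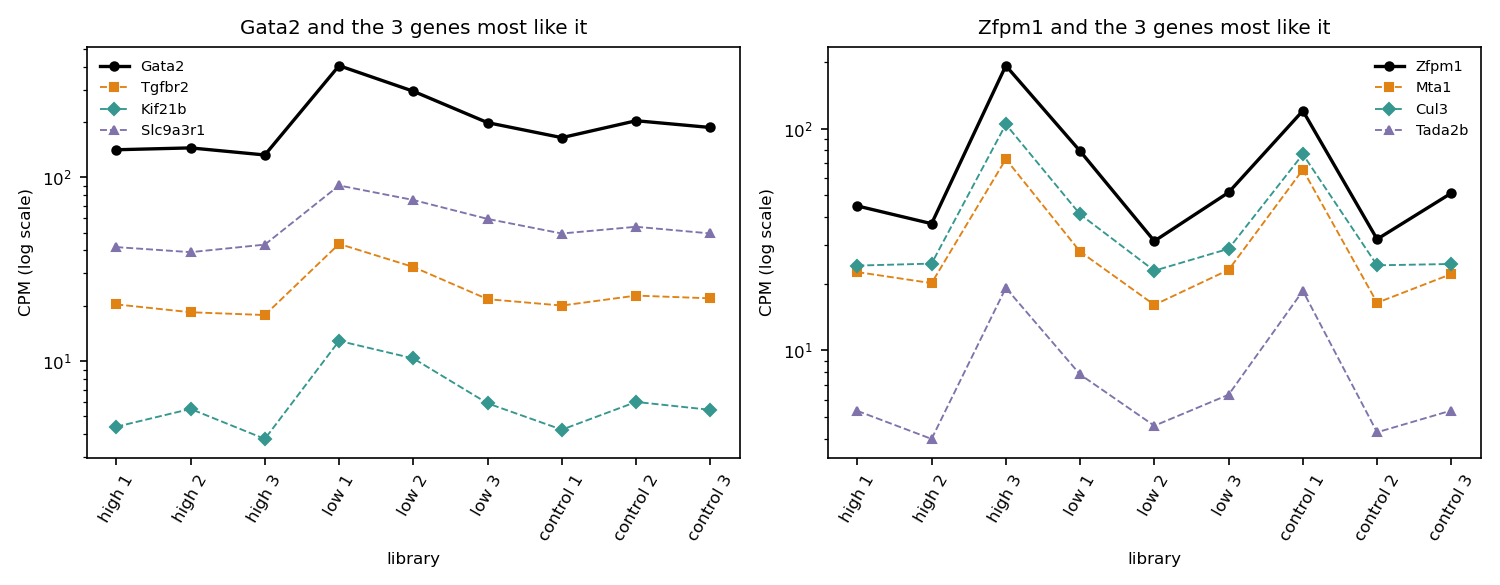
Normalized CPM on a log axis are plotted by library for Gata2 (left) and Zfpm1 (right), as solid black lines, with the 3 genes most like each as broken coloured lines. Gata2 and its like genes peak in HS3A8-low replicate 1, at 404.5 CPM for Gata2, while Zfpm1 and its like genes peak in HS3A8-high replicate 3 and control replicate 1.

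The second question was where each fraction lies relative to all MEPs. Each of these tests sets a part of the population against the whole that contains it. None of the 10 genes passed the test of HS3A8-high against the control, in which 0.0174% of 11486 genes passed (2 genes, both lower; 562 had an unadjusted p under 0.05, and DESeq2 called 140 genes and none of the 10), and only Gata2 of the 10 had an unadjusted p under 0.05. None passed in HS3A8-low against the control either, where 0% of 11878 genes passed (0 genes by edgeR, with 673 at an unadjusted p under 0.05, and 93 by DESeq2, none of the 10), and Gata2 and Nfe2 had an unadjusted p under 0.05. The log2 fold changes of Gata2 were -0.39 in HS3A8-high (95% interval -0.74 to -0.05) and 0.70 in HS3A8-low (0.07 to 1.32), and those of Nfe2 were -0.20 (-0.51 to 0.12) and 0.46 (0.09 to 0.83). The 2 comparisons use the same control libraries. For Gata1 the values were 0.22 and -0.05, for Tal1 0.27 and -0.03, and for Gfi1b 0.26 and 0.09, all with intervals that include 0. Control replicate 1 was the lowest of the 9 libraries for Gata1's partner Tal1 (58.7 CPM), for Gfi1b (303.3 CPM) and for Bcl11a (94.8 CPM), and the highest for Ldb1 (123.8 CPM).

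Proteins that bind the 10 factors directly were next read from a list of 11 core partners, 10 of which could be tested. Lmo4, a LIM-only protein related to Lmo2, fell in HS3A8-high, from 28.2, 26.9 and 20.0 CPM in HS3A8-low to 7.47, 5.72 and 10.7 CPM, with 9.10 to 12.9 CPM in the control. The log2 fold change was -1.68 (SE 0.28, edgeR adjusted p = 0.0297), and it passed in 12 of 16 alternatives. None of the other 9 passed. The E proteins of the list, Tcf3, Tcf12 and Tcf4, had log2 fold changes of 0.24, 0.20 and -0.10, and Lmo1 was at most at 2.27 CPM in any library. The list's median was 0.04, with 7 genes above 0 and 3 below.

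The 21 chromatin cofactors, subunits of NuRD, the LSD1-CoREST complex and coactivators, were all tested and none passed in edgeR (3 at an unadjusted p under 0.05, and 1 by DESeq2), although 19 had a log2 fold change above 0 (median 0.12, from -0.09 for Crebbp to 0.75 for Mta1). With the block 1 passed, Rbbp7, a histone-binding subunit of NuRD, at 0.26 (edgeR, adjusted p = 0.0414). Mta1 and Mbd2, at 0.75 and 0.58, had the largest values and shared the uneven pattern of Zfpm1, with Mbd2 at 271.6 CPM in HS3A8-high replicate 3, 241.8 CPM in control replicate 1 and 33.8 to 110.8 CPM elsewhere. Rbbp4 stood at -0.08.

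Of 17 paralogs of the 10 factors and partners of NF-E2, 10 were tested and none passed in edgeR (2 at an unadjusted p under 0.05, and 2 by DESeq2), and Gata4, Gata5, Gata6, Zfpm2 and Tal2 had a count of 0 in every library. Bcl11b, the paralog of Bcl11a that T cells use, was at 0.377, 0 and 0 CPM in HS3A8-high and 10.1, 3.87 and 2.86 CPM in HS3A8-low. Gata3, the GATA factor of T cells, was at 1.57, 0 and 0.993 CPM against 15.5, 11.9 and 5.13 CPM. Both missed the main test and passed with the block (edgeR, adjusted p = 0.0116 and 0.0379), where 8.27% of all genes were called lower. Of the 16 alternatives 7 called Bcl11b and 3 called Gata3, and none of the 6 analyses without 1 library called either. T and NK cell markers moved the same way, with Trbc1, a T cell receptor constant region, at 0.151 to 0.794 CPM in HS3A8-high and 21.8 to 24.6 CPM in HS3A8-low, and their part was not tested. The small Maf protein Mafk and the NF-E2 relative Nfe2l2 had log2 fold changes of 0.17 and 0.13.

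In blood stem and progenitor cells GATA2, TAL1, LYL1 and LMO2 share many sites with FLI1, ERG and RUNX1, a group known as the heptad. Of these 3 heptad partners, 2 fell in HS3A8-high, against 3.21% of all genes tested, and with 1 library left out the number ran from 0 to 2. Fli1, a megakaryocytic ETS factor, was at 8.92, 6.25 and 13.2 CPM in HS3A8-high and 62.9, 37.6 and 26.3 CPM in HS3A8-low, which gave -2.19 on the log2 scale (edgeR, adjusted p = 0.0363). Erg, its relative, was at 0.188, 0.753 and 0.463 CPM against 8.90, 5.28 and 3.37 CPM, or -3.67 (edgeR, adjusted p = 0.0307). Runx1 was at 25.4 to 30.3 CPM against 35.8 to 55.6 CPM, without overlap, and did not pass (-0.61, edgeR adjusted p = 0.158). Of the 7 factors known to share sites, then, Gata2, Fli1, Erg and Runx1 were lower in every HS3A8-high library, and Lyl1 and Lmo2 overlapped while Tal1 was higher in every HS3A8-high library, where 15.7% of all genes tested were lower and 12.1% higher without overlap.

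Known targets of the complex were read in 3 groups. Of 22 erythroid targets 21 could be matched and tested, and none passed in edgeR (6 at an unadjusted p under 0.05, and 3 by DESeq2), with 12 above 0 and 9 below and a median of 0.06. With the block 4 passed, all higher in HS3A8-high, against 3.32% of all genes higher in that test, and with 1 library left out none passed. Among them were Ermap, an erythroid membrane protein (0.41, edgeR adjusted p = 0.0173), Ank1, which encodes ankyrin of the red cell skeleton (0.43, 0.0487), and Klf1, the erythroid master factor (0.33, 0.0243), all as unblocked log2 fold changes with the blocked p. Bcl2l1, a survival factor, and Hbb-bt, an adult beta globin, had the lowest values at -0.70 and -0.48, and neither passed. The embryonic globins Hbb-bh1 and Hbb-y were too low to test, at most 0.265 CPM.

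Megakaryocyte targets had the lowest median of the groups of targets. Of 18 listed, 14 were tested and 3 passed, all lower, against 3.21% of all genes. Of those tested, 13 were below 0, and the median log2 fold change was -3.03 against -0.03 over all genes. The count filter keeps a gene with enough counts in 3 libraries, which can all be HS3A8-low. Gp1bb, at 0.691, 0 and 0 CPM in HS3A8-high and 7.14, 4.15 and 1.35 CPM in HS3A8-low, is such a gene. Genes kept in that way could hardly come out higher, so the number below 0 and the median partly follow from the filter. With the block 9 passed, and with 1 library left out 0 to 5 did. Pf4, a chemokine of platelet granules, was at 4.71, 3.31 and 1.85 CPM in HS3A8-high and 83.8, 57.8 and 49.4 CPM in HS3A8-low (-4.29, edgeR adjusted p = 0.00712). Itga2b, the platelet fibrinogen receptor's alpha chain, was at 7.97, 4.29 and 5.10 CPM against 125.4, 83.0 and 67.6 CPM (-4.01, edgeR adjusted p = 0.00712). Treml1, a platelet granule receptor, fell from 4.46 to 7.08 CPM in HS3A8-low to 0.529 to 1.05 CPM (-2.97, edgeR adjusted p = 0.0196). Gp1bb, at -4.12, missed the main test and was called in 3 of 16 alternatives, and Gp5 and Gp1ba, at -0.14 and 0.04, passed neither the main test nor the test with the block. Pf4 and Itga2b passed in 15 of 16 alternatives, and without HS3A8-low replicate 2 none of 12194 genes passed in edgeR, with 1900 at an unadjusted p under 0.05.

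The third group, listed as repressed targets without assigning each gene to 1 of the factors, gave 2 calls among 8 tested. Both were lower in HS3A8-high, against 3.21% of all genes, and with 1 library left out there were 0 to 2 calls. Meis1, a stem cell homeobox gene, was at 4.90, 4.82 and 3.51 CPM in HS3A8-high and 65.0, 38.9 and 26.6 CPM in HS3A8-low (-3.33, edgeR adjusted p = 0.0128). Rgs18, a signalling regulator of megakaryocytes and platelets, was at 23.9, 27.4 and 25.5 CPM against 73.1, 82.3 and 101.5 CPM (-1.77, edgeR adjusted p = 0.00712). Spi1, the myeloid factor PU.1, stood at -1.79, missed the main test and passed with the block (edgeR, adjusted p = 0.0282). Without both replicate 3 libraries it was -2.76 and passed as well (edgeR, adjusted p = 0.0238). It was highest in both replicate 3 libraries, at 27.9 CPM in HS3A8-high and 71.6 CPM in HS3A8-low, where granulocyte-monocyte markers were highest too, and their part was not tested. Kit and Myc, at 0.22 and 0.08, did not pass, and the median of the 8 genes was -0.31.

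**Figure D5:**
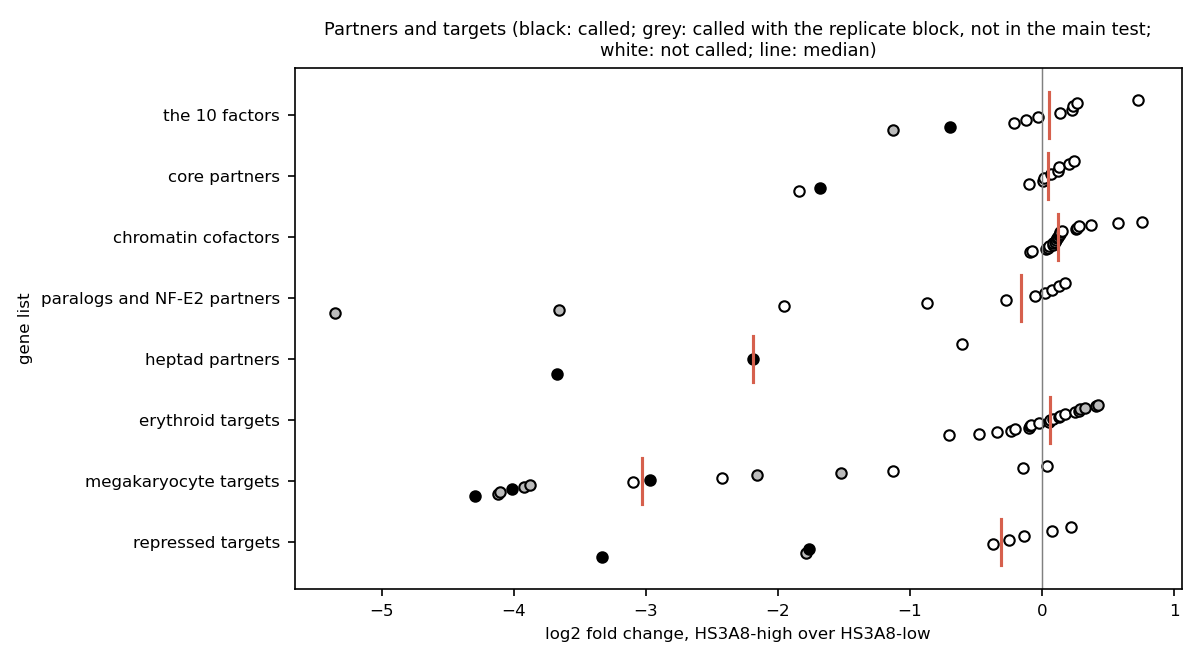
Each point is a tested gene at its log2 fold change of HS3A8-high over HS3A8-low, in 1 row per gene list, with the median as a red line; black points passed the main test, grey points missed it and passed with the replicate block, and white points passed neither. Medians of the 10 factors, core partners, chromatin cofactors and erythroid targets lie between 0.04 and 0.12, and that of the megakaryocyte targets at -3.03. Some megakaryocyte targets passed the count filter through HS3A8-low alone, which favours values below 0.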

How the data were processed

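Raw counts per gene were deposited by the authors as whole numbers, 1 column per library, with no normalization and no pooling. Per the submitters' processing notes STAR 2.5, HTSeq 0.6.1 and mm10 were used, and the gene annotation and strand setting are not given in the sources used here. Identifiers were joined to GENCODE M21 on GRCm38 (34490 of 35275 matched). The 10 genes, the gene lists and the ratios were chosen with earlier results of these data known. Counts were tested in R 4.3.3 with the quasi-likelihood test of edgeR 4.0.16 (TMM, filterByExpr, adjusted p under 0.05 by Benjamini-Hochberg over all genes), with the libraries of both groups compared in each fit. The 95% intervals come from that fit. Of each list, the genes past the threshold and the 2 highest and 2 lowest log2 fold changes were named, with a few defining markers and the 3 genes most like a member that varied.

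To check whether replicate numbers pair libraries, 11791 genes were used, which are not independent. Pearson's r of the deviations from each fraction's mean was 0.517, 0.345 and 0.514 where both replicate numbers were equal and -0.482 to 0.114 where they were not. The numbers were taken to pair the fractions, from the data alone. Same-number correlations with the control were -0.362 to 0.019, and no pairing was assumed there.

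Alternatives were other scalings, DESeq2 1.42.0, other count filters, all 9 libraries in 1 fit, the replicate block and each library left out. Leaving out both replicate 3 libraries, and the block with trends in GC content and transcript length removed by splines of 5 degrees of freedom, were chosen after seeing the data. Scripts were tested on simulated counts with known changes. Library totals of 11781637 to 15850037 counts limit precision through counting error only, which the zero floors cover.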

Additional observations from a re-analysis of the deposited data

How the results depend on the processing

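The number of the 10 genes called in HS3A8-high against HS3A8-low was 1 in the main analysis. It was 2 with upper quartile factors, the DESeq2 test, no count filter, all 9 libraries in 1 fit, the replicate block, and both replicate 3 libraries left out, and the genes were Gata2 and Nfe2 each time. It was 3 with the replicate block and trends in GC content and transcript length removed, which added Gata1. With 1 library left out it ran from 0 to 2, and the fit then has fewer libraries. Over all genes tested, the main analysis called 451 of 11791. Upper quartile factors called 448 of 11791, DESeq2 1224 of 13806 and no count filter 455 of 18095. All 9 libraries in 1 fit called 325 of 12108, the block 1367 of 11791 and leaving out replicate 3 748 of 11898. The block with trends removed called 1826 of 11740, and the analyses without 1 library called 0 to 439 genes. The block changed no other call among the 10 genes. Against the control 0 of the 10 were called in every alternative run.

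Log2 fold changes of genes that were not called changed sign as follows, and the cause was not tested. In HS3A8-high against HS3A8-low, Zfpm1 was -0.44 without both replicate 3 libraries, and -0.41 to 1.14 with 1 library left out. In the same comparison Lmo2 was 0.054 with the block and trends removed and -0.13 to 0.077 with 1 library left out, and Lyl1 -0.31 to 0.016. In HS3A8-high against the control, Lyl1 was -0.0019 with upper quartile factors. With 1 library left out of that comparison the ranges were Zfpm1 -0.69 to 1.14, Lyl1 -0.18 to 0.17 and Ldb1 -0.22 to 0.014. In HS3A8-low against the control, library totals alone gave 0.066 for Gata1 and 0.078 for Tal1, where that scaling moved the median of all genes to 0.11 from -0.0028, and upper quartile factors gave 0.019 for Tal1. With 1 library left out there they were Gata1 -0.15 to 0.051, Zfpm1 -0.71 to 0.38, Tal1 -0.20 to 0.12, Lyl1 -0.015 to 0.22, Lmo2 -0.035 to 0.17, Ldb1 -0.055 to 0.20, Gfi1b -0.10 to 0.22 and Bcl11a -0.15 to 0.25.

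Both ratios kept their direction as pairs by replicate number, without a length and with 1 library left out. Groups of 3 libraries were too small for a test of single outlying libraries, and 3 against 3 cannot give an exact p below 0.1. Lyl1, at 89 to 195 counts per library, was the least deeply counted of the 10.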
